A study of Mus musculus with 6 samples.

Results

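In the second library of neutrophils sorted from mouse blood, 108 of 5310 kept cells carried RNA of Retnla together with RNA of Lyz1 or Prg4. In the first blood library 1 of 3115 kept cells met the same rule. The members were chosen by measured values of the same library: the rule took cells with at least 200 genes detected, at most 10% mitochondrial RNA, at least 3 unique molecular identifiers (UMIs, each standing for 1 captured RNA molecule) of Retnla and at least 2 of Lyz1, Prg4 and Alox15 together. The levels of these 4 genes are therefore a description. The members therefore number 109 of 8425 kept blood cells, against 37213 kept cells in the whole series, and 1 library carries every result below.

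Retnla encodes a small secreted protein that alternatively activated macrophages of the mouse release under interleukin-4 and interleukin-13. In the serous cavities of mice it is known from macrophages that derive from blood monocytes, while resident cavity macrophages are known for the transcription factor Gata6, the lipoxygenase Alox15 and the lubricating glycoprotein Prg4. Lyz1 encodes a lysozyme, an enzyme that cuts bacterial cell walls, and lies beside its close paralog Lyz2, which most mouse myeloid cells express.

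The cells came from mice that carried SB28 tumors, a mouse glioma line, on day 18 after injection of 10000 tumor cells. Neutrophils from blood and from tumor were sorted as CD45+ CD11b+ cells with high LY6G and low or absent LY6C, and another preparation held all CD45+ cells of the tumor. Each preparation has 2 libraries of droplet-based single-cell RNA sequencing. Blood was drawn from the cheek vein and then from the heart, from animals whose strain, sex and age are not given in the sources used here. All groups bore tumors, so no tumor-free blood stands beside them. It is not stated whether libraries of the same number or group share animals.

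The members were set against 5020 cells of the same library, blood replicate 2, that held no Retnla UMI and at least 0.5% of their UMIs in S100a8 and S100a9, the abundant calcium-binding protein genes of neutrophils. From these, as many cells as there were members were drawn within 20 bins of total UMIs. Cells of 1 library are not replicates, so no test was made and no p-value is given. Values are summed UMIs, those sums scaled to a total of 1000000 UMIs (CPM) and their ratios. The 95% intervals on ratios and on shares (exact Clopper-Pearson) cover counting error only.

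The libraries held 3121 to 9418 barcodes and 13945799 to 129422458 UMIs, with a median of 3994.5 UMIs per kept cell in blood replicate 2 and of 4266 in blood replicate 1. The blood libraries shared 5 barcodes with each other. Of the members of blood replicate 2, 2 had a barcode that also occurred in CD45+ tumor replicate 2.

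The share of members was 2.03% (1.67% to 2.45%) in blood replicate 2, against 0.0321% (0.000813% to 0.179%) in blood replicate 1. Among CD45+ tumor cells, 6 of 9352 met the rule in replicate 1 and 0 of 8714 in replicate 2, a count that allows a share of up to 0.0344% when the limit for a count of 0 is set at 3 cells. Among sorted tumor neutrophils, 1 of 4140 met it in replicate 1 and 0 of 6582 in replicate 2, which allows up to 0.0456% by the same limit. The replicates of the blood sort thus differed beyond their counting intervals, which do not cover differences between animals or sorts. Over all kept cells, Retnla stood at 304 CPM in blood replicate 2 and 32.1 CPM in blood replicate 1, at 10.9 and 0.101 CPM in CD45+ tumor and at 11.2 and 0.0921 CPM in sorted tumor neutrophils.

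**Figure D1:**
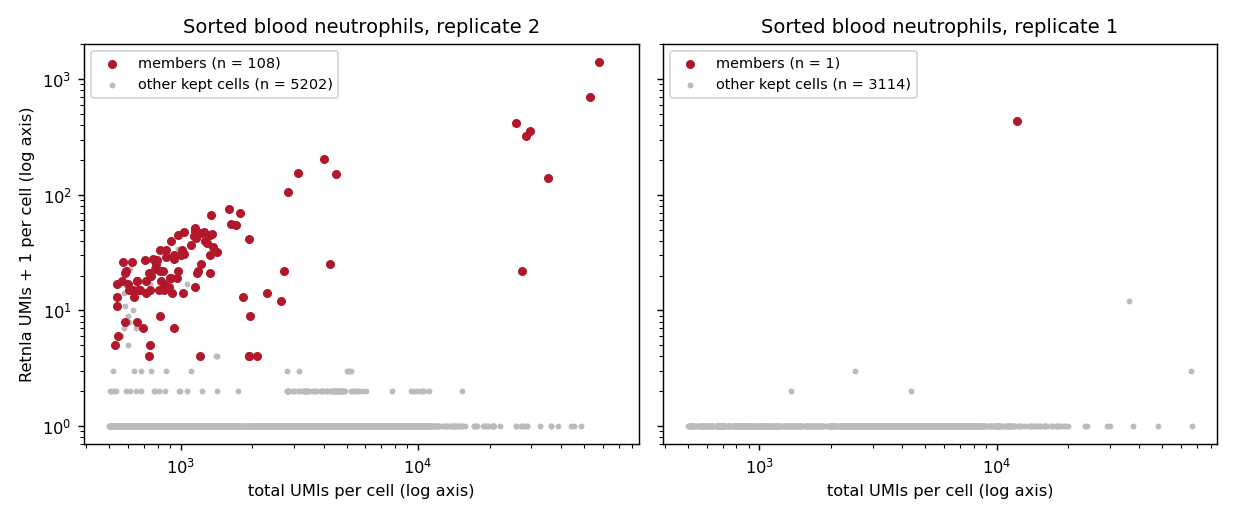
Retnla UMIs plus 1 against total UMIs for every kept cell of blood replicate 2 (left) and blood replicate 1 (right), both axes logarithmic, with members in red and all other kept cells in grey. The 108 members on the left form a dense cloud of 101 cells up to 4506 total UMIs and a separate set of 7 from 25822 UMIs on, and 1 member stands alone on the right.

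Retnla (chromosome 16, 48842551 to 48844461, plus strand, mm10) was concentrated in few cells. In blood replicate 2, 5089 kept cells held no UMI of it, 87 held 1 and 11 held 2, whereas 23 held 3 to 9, 84 held 10 to 49 and 16 held 50 or more. The members carried 95.9% of all 6567 Retnla UMIs of the library. Among cells outside the rule with at least 0.5% S100a8 and S100a9, 109 of 5129 (2.13%, 1.75% to 2.56%) held a Retnla UMI, at a median depth of 4019 UMIs. In blood replicate 1 it was 3 of 3029 such cells (0.0990%, 0.0204% to 0.289%). The 109 cells of blood replicate 2 include all but 1 of the 15 cells that had 3 Retnla UMIs or more and missed the rule by their partner genes.

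Of the other genes of the rule, Lyz1 (chromosome 10, 117287797 to 117292868, minus strand) was present in all 108 members. Prg4 (chromosome 1, 150449412 to 150466165, minus strand) was present in 49 of them, and Alox15 (chromosome 11, 70344152 to 70352031, minus strand) in 0. With Alox15 at 0 the rule amounts to Lyz1 or Prg4, so the presence of Lyz1 follows largely from the choice of members. Prg4 was seen in 46 of the 101 members under 10000 UMIs, whose median of 931 UMIs limits its detection. Among the 7 members above that size it was seen in 3. Because Prg4 was not detected in every member, the cells are called Retnla and Lyz1 cells here. The last 300 bases of the Lyz1 and Lyz2 transcripts are 93.8% identical, so the division of reads between the 2 lysozymes is uncertain. For Retnla and its neutrophil paralog Retnlg the identity is 76.0%.

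At the edge of the rule, 19 members exceeded a threshold by little and held a median of 7 Retnla and 2 Lyz1 UMIs, and 11 cells just below it held a median of 5 Retnla and 1 Lyz1 UMIs. S100a8 and S100a9 made up a median of 3.42% of UMIs in the 19 cells just inside and of 4.88% in the 11 just outside. Fn1, a gene the rule did not use, had a UMI in all 19 and in all 11, with a median of 6 just inside and 5 just outside. A further count covers 15 cells with at least 3 Retnla UMIs that lacked 2 UMIs of the partner genes, and Fn1 was detected in 13 of them.

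The members fell into sets of very different size, a division made after their values had been seen. The 7 large members held 25822 to 57645 UMIs and together 68.4% of all UMIs of the members. The 101 small members held 527 to 4506 UMIs with a median of 931, below the median of 4023 UMIs of the comparison cells. No member lay between 4506 and 25822 UMIs. Sums over all members are therefore mostly sums over 7 cells, so the large and the small members are also given apart for the main genes and lists.

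The large members had, in order of decreasing total UMIs, 1401, 705, 139, 358, 319, 21 and 417 UMIs of Retnla. Lyz1 had 684, 263, 58, 1, 162, 8 and 141 UMIs in the same cells, so that the cells with 29503 and 27539 UMIs in total carried little of it. Prg4 had 5, 0, 78, 1, 0, 0 and 0 UMIs, nearly all in the cell with 35181 UMIs in total. Ly6g, the gene of the surface protein used for the sort, had 0 UMIs in all 7. S100a8 and S100a9 made up between 0.0452% and 3.52% of the UMIs of the large members, and 4 of the 7 lay under 0.5%.

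The small members had 3 to 203 Retnla UMIs, with a median of 21, which is 2.50% of a cell's UMIs at the median. Lyz1 had a median of 5 UMIs in them, and Prg4 was seen in 46 of 101 cells with at most 5 UMIs. S100a8 and S100a9 made up 0.329% to 18.4% of their UMIs with a median of 1.98%, against a median of 6.77% in the 101 comparison cells matched to them and of 11.97% in all comparison cells. The ranges of the 2 matched sets overlapped.

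Fn1, which encodes the matrix glycoprotein fibronectin and is abundant in monocytes and cavity macrophages, was present in every member. It had 1128, 524, 258, 273, 190, 232 and 156 UMIs in the large members. In the small members it had 1 to 44 UMIs with a median of 8 and was found in all 101, against 6 of the 101 matched cells. Summed over cells, Fn1 reached 8419 CPM in the small members and 132 CPM in their matched cells, a ratio of 63.8 (39.1 to 112). Its share of the UMIs was alike in both sets of members, with a median of 0.842% in the large and 0.815% in the small.

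The spread of a gene over the small members was set against that of counts drawn in proportion to each cell's total UMIs, for which the ratio of variances is 1. This ratio was 1.29 for Fn1, 1.38 for Ecm1 and 1.47 for Plcb1, near the counting limit. It was 2.06 for Lyz1, 2.46 for Lyz2, 9.95 for Retnla and 10.4 for Malat1. Where cells differ, the ratio grows with the number of UMIs, and Plcb1 had 76 UMIs in these cells, against 1001 of Fn1 and 1582 of S100a8. Among neutrophil genes it was 2.13 for Csf3r, 3.61 for Retnlg, 15.0 for S100a9 and 21.0 for S100a8 in the same cells. The small members thus held Fn1 in near proportion to their size, while S100a8, S100a9, Malat1 and Retnla varied far more between them. In the matched cells S100a8 had a ratio of 30.6 and Fn1 of 6.09.

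**Figure D2:**
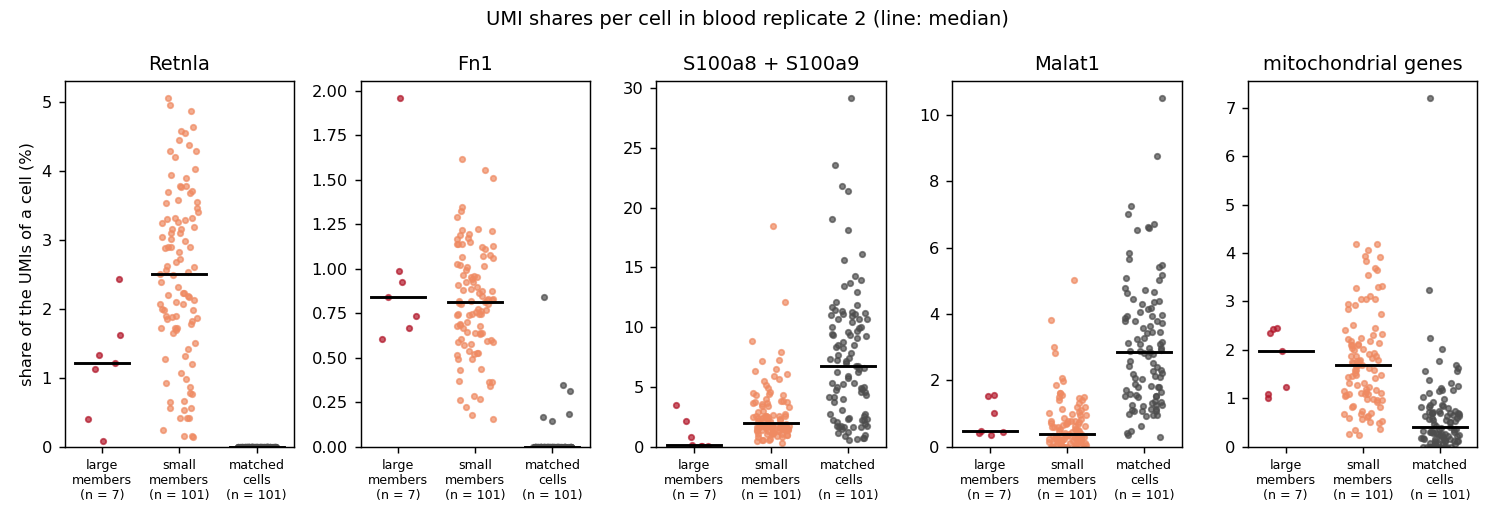
Share of a cell's UMIs in Retnla, Fn1, S100a8 with S100a9, Malat1 and the mitochondrial genes, in percent, for 7 large members, 101 small members and 101 comparison cells matched to the small members, with 1 point per cell and a line at the median. Fn1 lies near 0.8% in both sets of members and at 0 in nearly all matched cells, and Malat1 lies lower in the members.

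Malat1, a long RNA kept in the nucleus, had a median share of 0.479% in the large and 0.390% in the small members, against 2.84% in the matched cells. Mitochondrial RNA had a median of 1.99% in the large and 1.69% in the small members, against 0.416% in the matched cells. What these shares owe to the state of the cells or of their RNA was not tested.

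Across all genes, 5126 reached 20 UMIs over the 108 members and the 108 matched cells. Of these, 270 (5.27%) were at least 4-fold higher in the members and 258 (5.03%) at least 4-fold lower, with a median log2 ratio of 0.17. That draw of comparison cells had an imbalance of its own: 6 of the 108 matched cells held more than 10000 UMIs and supplied 63.6% of the comparison UMIs. Of these 6 cells, 3 carried the B cell gene Cd79a, 1 carried 1202 UMIs of the granule gene Camp, and 1 carried Prg4, Alox15 and 447 UMIs of Fn1. For the small members and their matched cells, where no such cell enters, 2156 genes were compared. There 202 (9.37%) were at least 4-fold higher and 186 (8.63%) at least 4-fold lower, with a median log2 ratio of -0.21. The large members were set against all comparison cells without matching, at a median of 29503 UMIs per large member and 4023 UMIs per comparison cell. Of 11407 genes, 3283 (28.8%) were at least 4-fold higher and 612 (5.37%) at least 4-fold lower, with a median log2 ratio of 0.94.

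Of the genes compared in both sizes, 174 were at least 4-fold higher in each, which is 86.1% of the 202 called in the small and 56.9% of the 306 called in the large members. At least 4-fold lower in each were 122, or 65.6% of the 186 in the small and 46.6% of the 262 in the large members. The 2 comparisons share comparison cells.

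The genes named next are the 20 with the highest ratios of members over the 108 matched cells, among genes seen in at least 20% of the members. Plcb1, a phospholipase that acts below G protein-coupled receptors, had 522 UMIs in the members and 3 in the 108 matched cells, a ratio of 156 (53.2 to 761). It was found in 7 large and 49 small members. Over the small members alone it had 76 UMIs, against 0 in their matched cells, at least 25.8-fold higher when the 0 is set at 3 UMIs over the group. Ecm1, a secreted matrix protein, had 896 UMIs in the members and 71 in the matched cells, a ratio of 11.3 (8.90 to 14.7), and was found in 77 of 101 small members. Its 228 UMIs in the small members stood against 6 UMIs in their matched cells, a ratio of 38.7.

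Lpl, the lipase that frees fatty acids from lipoproteins, had 94 UMIs in the small members and 0 in their matched cells, at least 31.9-fold higher, and 229 UMIs in 6 of the 7 large members. Cd36, a scavenger receptor for fatty acids and oxidised lipoproteins, had 89 UMIs in the small members and 1 in their matched cells, a ratio of 90.7 (15.9 to 3624). It was found in all 7 large members, with 18 to 100 UMIs each, and over all 108 members its ratio was 13.5 (9.11 to 20.7). Abca9, a lipid transporter of the ABC family, had a ratio of 15.4 (6.85 to 43.0) over all members. Of 7 genes of the lipid handling list compared over all members, 1 was at least 4-fold higher and 0 lower. With 5.27% and 5.03% of all genes so called, a count this small cannot be told from that share.

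F13a1, the coagulation factor XIII subunit of monocytes, had 250 UMIs in the members and 8 in the matched cells, a ratio of 28.1 (14.0 to 65.8). The chemokine Ccl9 had 165 UMIs in the small members and 8 in their matched cells, a ratio of 21.0 (10.4 to 49.5). Maf, a transcription factor of macrophages, had 128 UMIs in the members and 2 in the matched cells, a ratio of 57.5 (15.6 to 480). Cd226, an adhesion receptor known from monocyte-derived cavity macrophages, had 186 UMIs in the members and 13 in the matched cells, a ratio of 12.9 (7.34 to 24.6), and was found in all 7 large and in 26 small members. Each of these 4 genes was at least 4-fold higher in the small and in the large members.

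Ext1, an enzyme that builds heparan sulfate chains, had a ratio of 11.3 (7.60 to 17.6), and Sdc3, a surface protein that carries such chains, 10.6 (6.66 to 18.0). The calcium channel subunit Cacna1d, Mamdc2, Spred1, the lectin receptor Clec4a1, Apba1, Agmo, Ms4a8a, Fam78b and the phospholipid-binding protein Anxa5 complete the 20, with ratios between 9.79 for Anxa5 and 71.9 for Cacna1d. Apart from Spred1, which had too few UMIs there to be compared, each of the 20 was at least 4-fold higher in the small members against their matched cells too, with the lowest ratio, 6.12, for Clec4a1 and the highest, 90.7, for Cd36.

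The 9 genes with the lowest ratios follow, named by the same rule. Slpi, a protease inhibitor, had 80 UMIs in the members and 2190 in the matched cells, a ratio of 0.0328 (0.0259 to 0.0411). Within the small members Slpi had 57 UMIs against 260 in their matched cells, a ratio of 0.224. Socs3, an inhibitor of cytokine signalling, had a ratio of 0.117 (0.0539 to 0.226), and the receptor gene Cd101 one of 0.118 (0.0487 to 0.247). Tg, Cstdc4, Rnf144a, Gsdme, Nlrp12 and Gcnt2 had ratios between 0.0170 for Tg and 0.136 for Gcnt2. All 9 were at least 4-fold lower in the small and in the large members.

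**Figure D3:**
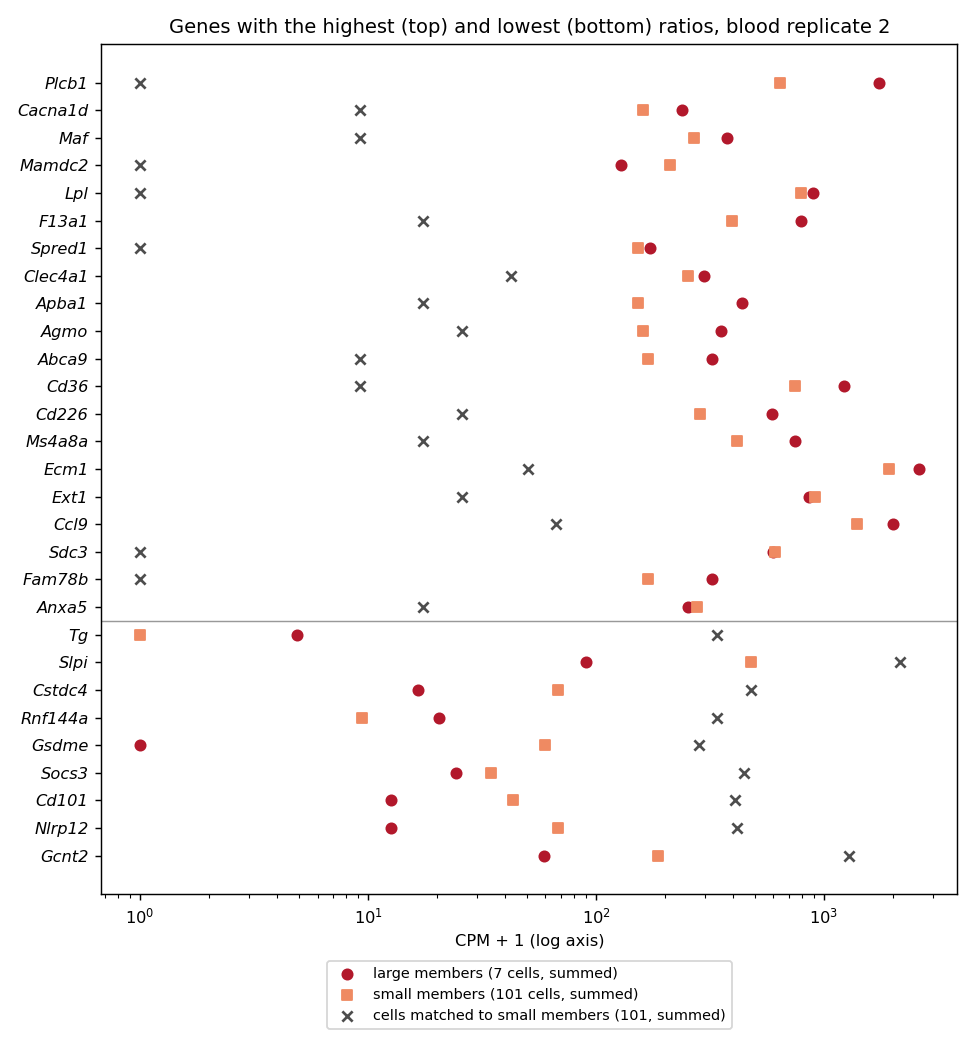
CPM plus 1 on a logarithmic axis for the 20 genes with the highest and the 9 with the lowest ratios, summed over 7 large members, 101 small members and 101 cells matched to the small members. For the upper 20 genes both sets of members lie right of the crosses of the matched cells, and for the lower 9 they lie left.

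Monocyte genes were high in both sizes of member. Of the list of classical monocyte markers, 5 genes were compared over all members. Of these, 4 were at least 4-fold higher and 1 lower, beside 5.27% and 5.03% of all genes. The median log2 ratio was 2.72, beside 0.17 over all genes. In the small members 3 of 3 were higher, beside 9.37% of all genes, with a median log2 ratio of 4.58 beside -0.21. Besides Fn1 and F13a1 these included Ccr2, the chemokine receptor that brings monocytes out of the marrow, with 86 UMIs in the small members and 6 in their matched cells, a ratio of 14.6 (6.45 to 40.9). Ccr2 was found in 7 of 7 large and 49 of 101 small members, against 38 of 5129 cells outside the rule with at least 0.5% S100a8 and S100a9 (0.741%, 0.525% to 1.02%). Ly6c2, whose protein the sort selected against and which marks classical monocytes, was the gene that was lower, with 8 UMIs in the members and 36 in the matched cells.

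General macrophage genes differed between the draws of comparison cells. Of 9 compared in the small members, 5 were at least 4-fold higher and 0 lower, beside 9.37% and 8.63% of all genes. Their median log2 ratio was 3.26, beside -0.21. Over all members it was 3 of 11 higher and 0 lower, with a median of 1.31, beside 5.27% of all genes higher and a median of 0.17. The complement genes C1qa, C1qb and C1qc, known from tissue macrophages, show it. In the small members C1qb had 103 UMIs, against 1 in their matched cells, a ratio of 105 (18.4 to 4188), whereas over all members the ratio was 2.47 (1.99 to 3.08), and 84 of the 84 C1qa UMIs in the matched cells lay in the single comparison cell with Prg4 and Alox15.

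C1q RNA was not shared by all members. C1qb was found in 27 of 101 small members (26.7%, 18.4% to 36.5%) and in 5 of 7 large ones, against 29 of 5129 cells outside the rule with at least 0.5% S100a8 and S100a9 (0.565%, 0.379% to 0.811%). C1qa had 21, 56, 30, 0, 0, 0 and 74 UMIs in the large members, so that 4 carried it and 3 did not. Mrc1, the mannose receptor, had 47 UMIs in the small members and 5 in their matched cells, a ratio of 9.58 (3.83 to 30.9). Adgre1, which encodes the macrophage antigen F4/80, and Csf1r, the receptor for the macrophage growth factor CSF1, stayed under 4-fold, at ratios of 2.69 (1.30 to 5.96) and 1.53 (0.812 to 2.95).

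Genes of resident cavity macrophages were in part missing. Of the 13 on that list, 7 had 0 UMIs in all members, namely Gata6, Vsig4, Cd5l, Garnl3, Ltbp1, Cxcl13 and Tgfb2. Of the 8 that could be compared over all members, 1 was at least 4-fold higher and 4 lower, beside 5.27% and 5.03% of all genes. The 4 lower ones rest almost wholly on the comparison cell with Prg4 and Alox15, which held 41 of the 41 Cd5l, 40 of the 40 Ltbp1, 31 of the 35 Garnl3 and 22 of the 28 Selp UMIs of the matched cells. In the cells matched to the small members Cd5l, Ltbp1 and Garnl3 had 0 UMIs. Rarb, a retinoic acid receptor of that list, was the higher gene, with 74 UMIs in the members and 8 in the matched cells, a ratio of 8.32 (4.01 to 20.0). In the large members, against all comparison cells, 4 of 8 were at least 4-fold higher and 0 lower, beside 28.8% of all genes higher. Of these, Cd5l and Ltbp1 had 0 UMIs in the large members and passed only because a 0 is set at 3 UMIs. Rarb and F10 had ratios of 147 (93.3 to 235) and 40.5 (25.4 to 63.5) there, and F5 one of 1.67 (1.22 to 2.22). Of the list of monocyte-derived cavity macrophages, the 2 genes compared, Cd226 and Ccr2, were both higher, while Mgl2, Lyve1 and Cd209a had 0 UMIs in the members. MHC class II genes, which present peptides to T cells, gave 0 of 6 past 4-fold in either direction over all members. Their median log2 ratio was -0.85. Their summed share of UMIs was 0.371% in the members, against 0.717% in the cells matched to all members and 0.0312% in all comparison cells. The median share per cell was 0 in the cells matched to all members. In the small members 0 of 5 class II genes were past 4-fold in either direction, with a median of 0.87. In the large members 6 of 7 were at least 4-fold higher than in all comparison cells, where 28.8% of all genes were, with a median log2 ratio of 3.37 beside 0.94. H2-Aa had 110 UMIs there, a ratio of 10.4 (8.41 to 12.6).

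Neutrophil RNA was present in the members at a lower level than in the comparison cells. Without S100a8 and S100a9, the neutrophil list gave 6 of 11 genes at least 4-fold lower over all members and 0 higher. The median log2 ratio was -2.23, beside 5.03% of all genes lower and a median of 0.17. In the small members it was 6 of 10 lower and 0 higher, beside 8.63% of all genes lower, and the log2 ratios ran from -2.90 to -1.40. Csf3r, the receptor for the neutrophil growth factor G-CSF, had 56 UMIs in 37 of the small members and 369 UMIs in 79 of their matched cells, a ratio of 0.155 (0.115 to 0.205). Retnlg, the resistin-like gene of neutrophils, had 459 UMIs in the small members and 1231 in their matched cells, a ratio of 0.380 (0.341 to 0.424). In the large members its ratio to all comparison cells was 0.0151 (0.0118 to 0.0192). All 11 genes of the list were at least 4-fold lower there, beside 5.37% of all genes. The summed share of the neutrophil list had a median of 0.518% in the small members, with a range of 0 to 2.33%, against a median of 2.07% and a range of 0.219% to 6.54% in their matched cells, and of 0.0486% in the large members. How much of the RNA of the small members came from neutrophils was not tested.

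RNA of the surface proteins used for the sort differed in direction. Ly6g had 2 UMIs in all 108 members, against 30 in the 108 matched cells. Itgam, which encodes CD11b, had 160 UMIs in the small members and 87 in their matched cells, a ratio of 1.88 (1.44 to 2.46). Ptprc, which encodes CD45, had 77 UMIs in the small members and 304 in their matched cells, a ratio of 0.258 (0.198 to 0.333).

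Markers of other blood and tissue cells were at or near 0 in the members. All 7 T cell, 5 NK cell, 5 mesothelial and 5 fibroblast markers had 0 UMIs, and so did 5 of 6 eosinophil markers, 7 of 8 mast cell or basophil markers and all 6 erythroid markers. Of the platelet list 4 of 6 were at 0, and Pf4 had 34 UMIs in the members and 147 in the matched cells. Of the B cell list 4 of 6 were at 0. The 5 of 5 that could be compared were at least 4-fold lower, beside 5.03% of all genes, in a draw that held 3 cells with Cd79a. Haemoglobin UMIs were found in 0 of 108 members, which allows a share of up to 2.78% at a limit of 3 cells. Among matched cells they were found in 6 of 108 and, for the cells matched to the small members, in 2 of 101. Among all comparison cells, which had a higher median of 4023 UMIs, it was 205 of 5020.

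**Figure D4:**
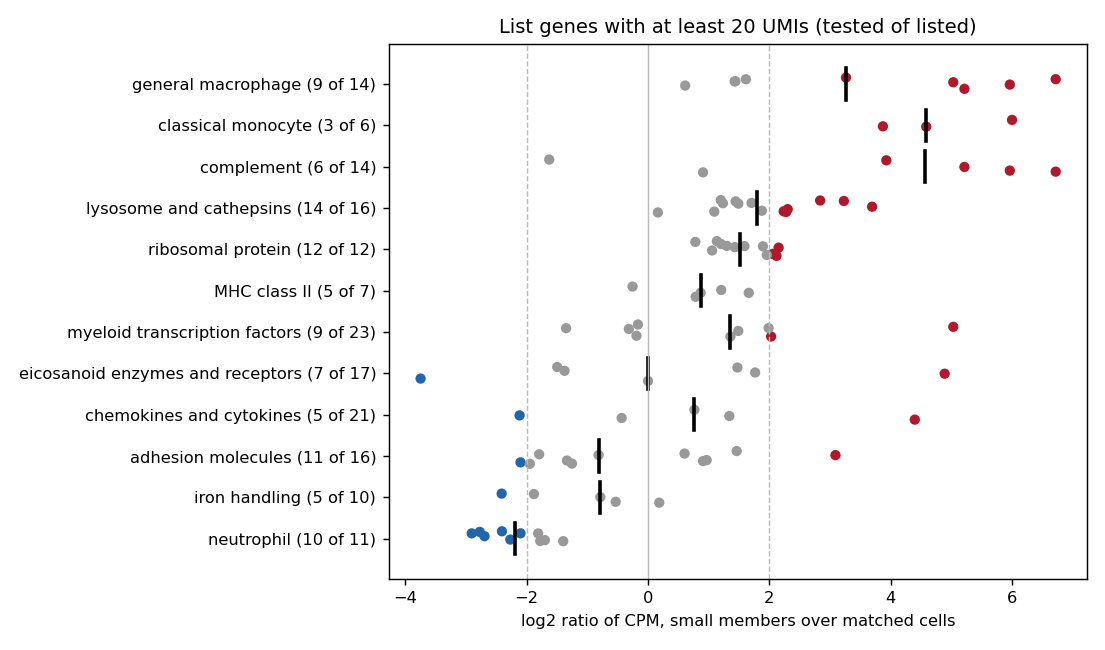
Log2 ratio of CPM, small members over their matched cells, for each gene with at least 20 UMIs in 12 lists, with a black line at the median and with genes past 4-fold in red (higher) or blue (lower). General macrophage and classical monocyte genes lie to the right, with medians of 3.26 and 4.58, and neutrophil genes to the left, with a median of -2.18.

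Genes of lysosomes lay on the higher side. Among those compared in the small members, 6 of 14 were at least 4-fold higher and 0 lower, with a median log2 ratio of 1.79, beside 9.37% of all genes higher and a median of -0.21. Over all members 3 of 16 were higher and 0 lower, with a median of 1.47, beside 5.27% and 0.17. The proteases Ctsb and Ctss had ratios of 12.9 (5.67 to 36.3) and 9.36 (5.66 to 16.5) in the small members. Of the uptake and scavenging list, 3 of 4 were higher in the small members, and besides Cd36 these were Msr1, at least 6.80-fold higher, and Lrp1, with a ratio of 10.2 (2.48 to 90.0).

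Of the eicosanoid list, Ltc4s, which makes leukotriene C4, had 58 UMIs in the small members and 2 in their matched cells, a ratio of 29.6 (7.82 to 250), but over all members its ratio was 3.98. Ptgs2, the inducible cyclooxygenase, had 3 UMIs in the small members and 41 in their matched cells, a ratio of 0.0747 (0.0148 to 0.234). Over all members 4 of 13 genes of that list were at least 4-fold higher and 2 lower, beside 5.27% and 5.03% of all genes, with a median log2 ratio of 0.93. Cfp, the complement regulator properdin, had 149 UMIs in the small members and 10 in their matched cells, a ratio of 15.2 (8.03 to 32.3), and 2.81 over all members.

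Of the myeloid transcription factors, 7 of 16 were at least 4-fold higher over all members and 0 lower, beside 5.27% of all genes higher, and 2 of 9 in the small members, beside 9.37%. Zeb2, a repressor active in monocytes and macrophages, had a ratio of 3.96 (2.83 to 5.65) in the small members. Spi1, which encodes PU.1, had a ratio of 0.393 (0.280 to 0.545) there. Of the iron genes, Slc40a1, the iron exporter ferroportin, had 12 UMIs in the small members and 65 in their matched cells, a ratio of 0.188 (0.0927 to 0.352). Il1b, the inflammatory cytokine, had 82 UMIs in the small members and 362 in their matched cells, a ratio of 0.231 (0.179 to 0.294), and in the large members its ratio to all comparison cells was 0.0733 (0.0565 to 0.0934).

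Ribosomal protein genes gave different pictures by size. Of the 12 compared in the small members, 3 were at least 4-fold higher, beside 9.37% of all genes. All 12 had a ratio above 1 there, with a median log2 ratio of 1.51. Over all members 0 of 12 were past 4-fold, with a median of -0.11. In the large members 11 of 12 were at least 4-fold higher than in all comparison cells, beside 28.8% of all genes. The median log2 ratio was 2.41, beside 0.94 over all genes.

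Alternative activation genes, which interleukin-4 raises in mouse macrophages and to which Retnla belongs, did not all follow Retnla. Of 8 compared over all members, 3 were at least 4-fold higher and 0 lower, beside 5.27% and 5.03% of all genes. Of 5 in the small members 2 were higher, Mrc1 and Cd36, beside 9.37% of all genes. Chil3, a chitinase-like protein often measured beside Retnla, had 176 UMIs in the small members and 212 in their matched cells, a ratio of 0.846 (0.689 to 1.04). In the large members Chil3 was lower than in all comparison cells, at 373 CPM against 1699 CPM, a ratio of 0.220 (0.178 to 0.268). Ccl24, an eosinophil-attracting chemokine, had 150 UMIs in the members, of which the largest cell alone held 138. Arg1, the arginase of such macrophages, reached 2.66 CPM in the members.

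The few cells of other libraries that met the rule were looked at singly. The member of blood replicate 1 held 12215 UMIs, with 430 of Retnla, 79 of Lyz1, 166 of Fn1, 24 of Ccr2 and 63 of C1qa, and S100a8 and S100a9 made up 0.0491% of its UMIs. Each of these values lay within the range of the large members of blood replicate 2, although its total was lower, and no small member stood beside it in its library. The member among sorted tumor neutrophils held 228 Retnla and 136 Fn1 UMIs, and 220 of the class II gene H2-Aa. The 6 in CD45+ tumor held 3 to 20 Retnla UMIs among 6130 to 45444 in all, and 0 of Prg4.

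The members were last described beside macrophages of the tumor, taken as CD45+ tumor cells with at least 3 C1q UMIs and 1 of Csf1r, 3995 cells in replicate 1 and 4655 in replicate 2. This set was not cleared of microglia, the resident macrophages of the brain, whose marker Tmem119 reached 97.0 and 90.7 CPM in it. Library, tissue and sort differ here, so the values are a description. Of 264 list genes, 35 (13.3%) were past 4-fold higher in the members than in both tumor libraries, and 49 (18.6%) past 4-fold lower. The 35 include Retnla, Lyz1 and Prg4, whose levels the choice of members fixed. Cd226 reached 494 CPM in the members, against 3.85 and 1.33 CPM in the tumor macrophages. Rarb stood at 197 CPM in the members, against 0.858 and 0.359 CPM. Lpl, Cd36 and Ccr2 were on the same side, with Ccr2 at 912 CPM in the members and at 205 and 217 CPM in the tumor macrophages.

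On the lower side stood Arg1, at 2.66 CPM in the members and 2793 and 2973 CPM in the tumor macrophages, and Apoe, a lipid carrier, at 797 CPM in the members and 16553 and 16582 CPM in the tumor macrophages. Trem2, a lipid-sensing receptor, had 10.6 CPM in the members and 378 and 380 CPM in the tumor macrophages. The chemokine Cxcl2 had 249.9 CPM in the members and 3651 and 4978 CPM in the tumor macrophages. Fn1 and Lyz2 were not past 4-fold, with Fn1 at 10000 CPM in the members and 3142 and 3223 CPM in the tumor macrophages.

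**Figure D5:**
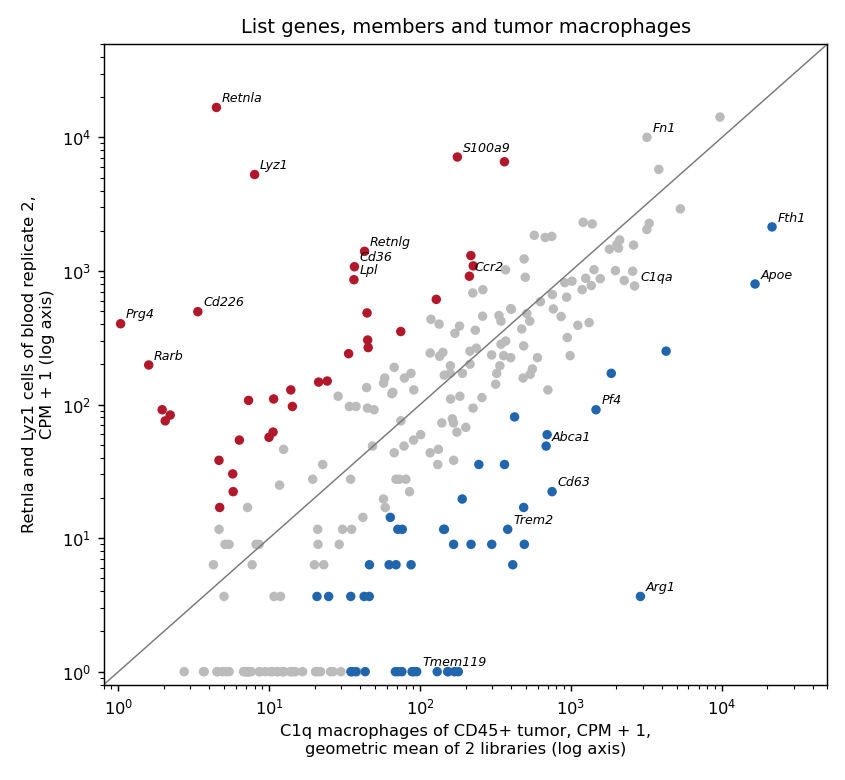
CPM plus 1 of list genes in the 108 members of blood replicate 2 (vertical) against the geometric mean over the 2 CD45+ tumor libraries of C1q macrophages (horizontal), both axes logarithmic, with the line of equal values. Red genes (35) are past 4-fold higher in the members than in both libraries, blue genes (49) past 4-fold lower, and Fn1 and C1qa are grey.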

How the data were processed

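Droplet-based 3′ single-cell RNA libraries, with 20000 cells loaded per lane, were analysed from the deposited filtered matrices, which hold UMI counts of each gene in each cell as whole numbers, not normalized. Per the submitters' processing notes, the authors obtained these counts from Cell Ranger 7.1.0 with the mm10 genome, and which annotation was used is not given there. Coordinates come from GENCODE vM21 on the same build. The members, the gene lists and the rule for named genes were chosen with earlier results of these data known.

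UMIs were summed over cells and divided by the total of the set (CPM). Genes with at least 20 UMIs over both sets were compared, a sum of 0 was set at 3 UMIs, and a ratio of 4 in either direction was the threshold. Named genes were the 20 highest and 10 lowest ratios among genes with at least 50 UMIs and a UMI in at least 20% of the cells of the higher set, without the genes of the rule, S100a8 and S100a9, together with genes of 38 lists; 1 of the 10 lowest is not reported here. Intervals used scipy 1.17.1 (Clopper-Pearson for shares, conditional binomial for ratios, 95%). TMM factors of edgeR 4.0.16 served in an alternative only. Scrublet in scanpy 1.11.5 marked 3 cells of blood replicate 2 with its automatic threshold, which has not worked at that rate; doublets were kept, and an alternative removed the 226 highest scores, 5 of them members. On simulated data with 8-fold changes in 200 genes, 99.5% were recovered for all members with 3 false calls among 4652 genes, and 100% for the small members with 12 among 1868. The simulated sums held counting error only and no variation between cells. They therefore do not give the error rate of the real comparison.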

Additional observations from a re-analysis of the deposited data

How the results depend on the processing

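No paired analysis was possible because the results come from no test and 1 library carries the members. The comparison without blood replicate 2 was not run, since replicate 1 holds 1 member. The counts of genes at least 4-fold higher and lower were 270 and 258; with unmatched comparison cells they were 2788 and 659 (80.9% of calls higher, against 51.1%), with at least 5 UMIs per gene 628 and 645, and with at least 100 UMIs 67 and 58. With members under 0.5% S100a8 and S100a9, of which 3 could be matched, the counts were 209 and 78 (72.8% higher). With only the 7 large members, unmatched, they were 3283 and 612 (84.3% higher). Another draw gave 382 and 248, and scaling by TMM 228 and 296. The share of members in blood replicate 2 was 0.953% (45 of 4723 cells) after each cell was thinned to 1000 UMIs, which left out 587 shallower cells. The cause of these shifts was not tested, apart from the smaller or larger sets that the settings themselves make. Values on the other side of 1 or 0 were as follows. The ratio of Tg was 1.11 with members under 0.5% S100a8 and S100a9. The median log2 ratio of the platelet list, a single gene, was 1.79 unmatched, 3.32 with another draw, 3.32 without comparison cells that held haemoglobin and 2.03 with only large members. That of the endothelial list was 1.10 unmatched and 1.44 with only large members, that of the proliferation list 1.34 and 1.68, and that of the B cell list 0.0303 with only large members. Of the other list medians 302 moved little and 97 more, and of the ratios of named genes 327 and 92. Settings by member size and without haemoglobin were chosen after seeing the data. The counts against tumor macrophages ran from 29 to 37 higher and from 35 to 56 lower. Depth limits the small members most, since genes of few UMIs could not be compared in them.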

Other observations

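Cells rich in Prg4 were few and mostly lacked Retnla, a selection made after the values had been seen. Besides 1 member with 78 Prg4 UMIs, 4 kept blood cells held at least 50. In blood replicate 2 these held 255 and 457 Prg4 UMIs, with 180 and 64 of Alox15 and 2 and 5 of Gata6, the transcription factor of resident cavity macrophages. In blood replicate 1 they held 272 and 486 Prg4 UMIs, with 65 and 154 of Alox15 and 8 and 16 of Gata6. All 4 held 0 Retnla UMIs, and the member with 78 Prg4 UMIs held 0 of Alox15 and 0 of Gata6. Fn1 was present in all 4, with 447 and 450 UMIs in blood replicate 2 and 492 and 736 in blood replicate 1.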
